A study of Mus musculus with 10 samples.

Results

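Mfsd2b and 8 other genes of sphingosine-1-phosphate (S1P) handling were followed in the medial knee articular cartilage caps of 10 mice, 5 wild-type and 5 null for the microRNA gene Mir324. The members were taken by symbol (Mfsd2b, Spns2, Sphk1, Sphk2, Sgpl1, Sgpp1, S1pr1, S1pr2 and S1pr4), and all 9 were found among the 35705 genes of the expression table. All 9 also had a mean of at least 1 TPM, the level set for testing, which 13841 genes reached. TPM is the abundance of a transcript after allowing for its length, scaled so that every library sums to 1000000. Each library came from the dissected cap of 1 mouse, frozen, ground and made into a library with a low-input RNA kit. No treatment is named for either group, and the age, sex, strain background, litter and sequencing batch of the mice are absent from the labels, and batch could not enter any fit. The labels name no driver that would restrict the null allele to a tissue. Mfsd2b was chosen by its measured level, which differed between the genotypes, so that difference is described without a test. The genes that accompany Mfsd2b among mice of 1 genotype, the other S1P genes and their genotype differences were not used to choose it.

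S1P is a signalling lipid made inside cells from sphingosine by the kinases Sphk1 and Sphk2. It is carried out of the cell by transporters, Mfsd2b in red blood cells and platelets and Spns2 in endothelial cells, and acts on G protein-coupled receptors of the S1pr family. Inside the cell it is dephosphorylated by Sgpp1 or cleaved for good by the lyase Sgpl1. Blood cells supply much of the S1P of plasma, and its gradient between blood and tissue guides lymphocytes and bone marrow cells, osteoclast precursors among them.

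The libraries held a large share of blood and marrow transcripts beside those of cartilage. The chondrocyte genes Prg4 (lubricin) and Col2a1 (the main cartilage collagen) were present, at 1335 to 5075 TPM and 33.9 to 143 TPM, while 3 of 11 chondrocyte genes listed, Matn1, Matn3 and Col9a1, averaged under 1 TPM. Haemoglobin genes took 11.2 to 26.1% of each library. The neutrophil gene S100a9 stood at 20908 to 43779 TPM, and bone cell genes such as Bglap (osteocalcin) at 1020 to 5138 TPM. Libraries of 1 genotype correlated at 0.943 to 0.972 (Spearman, 20 pairs over all genes tested). In bulk tissue of this kind, fewer cells of a type and less RNA per cell cannot be told apart.

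The 2 mature strands that the null allele removes are printed here to show the letters that were searched for in the S1P genes. They come from RefSeq on GRCm38.p6, from chromosome 11, at 70012060 to 70012082 for the 5p strand and 70012095 to 70012114 for the 3p strand, both on the plus strand. Capitals mark the seed, bases 2 to 8, with which a microRNA pairs to its targets.
miR-324-5p: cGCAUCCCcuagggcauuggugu
miR-324-3p: cCACUGCCccaggugcugcu
The matching site for the 5p seed is GGGATGC and that for the 3p seed is GGCAGTG. Neither site was found in the longest annotated 3′ UTR of any of the 9 members. Across 12601 tested genes with an annotated 3′ UTR, 8.5% held the 5p site and 15.4% the 3p site. In full-length transcripts, neither site occurred in any of the 8 annotated Mfsd2b transcripts. Sites outside the longest 3′ UTRs were present in S1pr4-201 (1 of each strand), in S1pr2-201 and S1pr2-203 (1 for 3p), in Spns2-201 (1 for 3p) and in Sphk2-201, Sphk2-202 and Sphk2-203 (1 for 5p each). A match is a description of the letters and not evidence of binding.

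Mfsd2b (ENSMUSG00000037336, chromosome 12, 4862440 to 4874359, minus strand, GRCm38), the S1P exporter of red cells and platelets, stood higher in the null mice. Its level was 40.4, 44.3, 53.5, 44.9 and 44.5 TPM in wild-type mice 1 to 5, and 79.0, 74.2, 54.3, 67.5 and 74.0 TPM in null mice 1 to 5. The genotypes did not overlap, but null mouse 3 lay just above wild-type mouse 3 while the other 4 null mice lay well clear. The means were 45.5 ± 4.82 and 69.8 ± 9.59 TPM (SD, n = 5 each), a ratio of 1.53, and the difference on the log2(TPM + 1) scale was 0.60 (SE 0.114). Among all genes tested, 0.881% had all null mice above all wild-type mice. Because this difference chose the gene, nothing is read from that share.

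Mfsd2b was also the member with the highest level, at a mean of 57.6 TPM over the 10 mice. Next came Sgpl1 at 37.1, S1pr4 at 26.8, Sgpp1 at 25.9, Sphk1 at 22.1, Sphk2 at 17.0, Spns2 at 13.5, S1pr1 at 12.8 and S1pr2 at 6.72 TPM. Each neighbouring pair in this order overlapped in range over the mice. Compared within each mouse, Mfsd2b was above Sgpl1, Sgpl1 above S1pr4 and S1pr1 above S1pr2 in 10 of 10 mice. Sgpp1 was above Sphk1 and Sphk1 above Sphk2 in 9 of 10, and Sphk2 above Spns2 in 8 of 10. The order of S1pr4 over Sgpp1 held in 5 of 10 mice and that of Spns2 over S1pr1 in 6 of 10, so these neighbours did not differ beyond their spread.

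**Figure D1:**
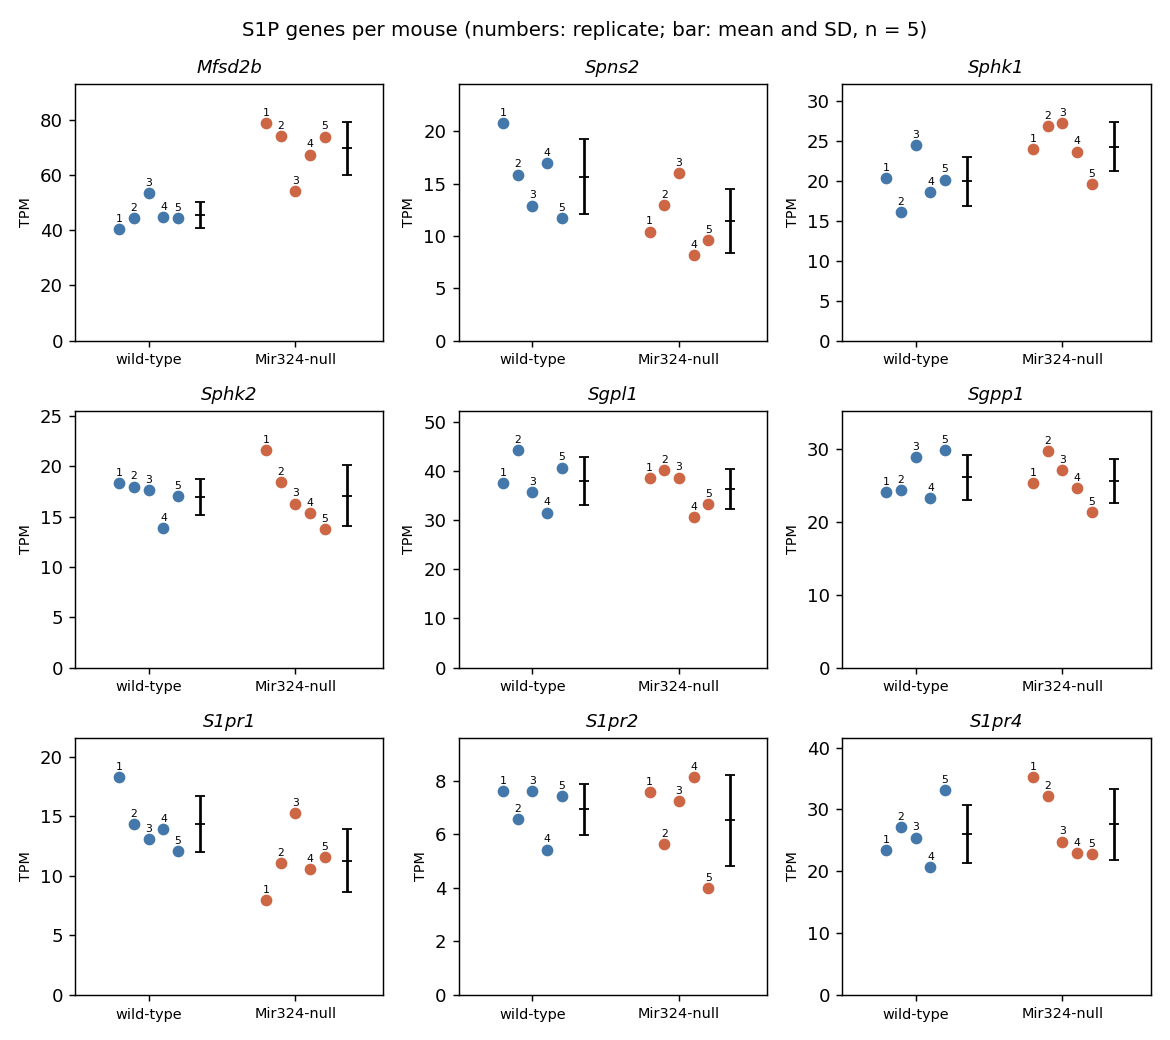
TPM of each of the 9 members in each mouse (vertical axis, from 0), with wild-type mice in blue and Mir324-null mice in red, replicate numbers beside the points, and bars for the mean and SD of 5 mice. Mfsd2b, chosen by its genotype difference, is the one member whose genotypes do not overlap. It runs from 40.4 to 53.5 TPM in wild-type mice against 54.3 to 79.0 TPM in null mice.

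None of the other S1P genes passed the test between genotypes, and neither did any other gene. Mfsd2b was chosen by its difference, so its contrast with the other members is not a result. Of the other 8 members, 0 differed between the genotypes at an adjusted p under 0.05 (limma across 13841 genes, Benjamini-Hochberg adjustment), which was also the count over all genes (0%). The other 8 had 2 estimates above 0 and 6 below, with a median difference of -0.04 on the log2 scale against -0.05 over all genes tested, and 40% of all genes had an estimate above 0. At an unadjusted p under 0.05, 0 members were higher and 1, Spns2, was lower, against 4.28% and 7.3% of all genes. None of the 8 separated the genotypes completely.

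The other exporter among the members, Spns2, had an estimate below 0. Spns2 is the S1P transporter that endothelial cells use to supply lymph. It stood at 20.8, 15.9, 12.9, 17.0 and 11.7 TPM in wild-type mice against 10.4, 12.97, 15.99, 8.20 and 9.57 TPM in null mice. Of the 5 null mice, 4 were below the wild-type mean of 15.7 TPM, and the exception was null mouse 3, the null mouse lowest in Mfsd2b. The difference was -0.43 (SE 0.189), with an adjusted p of 0.424 by limma, and did not pass.

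Neither sphingosine kinase separated the genotypes. Sphk1, the mainly cytoplasmic kinase, was at 20.4, 16.1, 24.5, 18.7 and 20.2 TPM in wild-type mice against 24.0, 26.9, 27.3, 23.7 and 19.6 TPM in null mice. Null mice 1, 4 and 5 lay below wild-type mouse 3, and the difference of 0.27 (SE 0.126) had an adjusted p of 0.435 by limma. Sphk2, a kinase also found in the nucleus and mitochondria, ranged from 13.9 to 18.3 TPM in wild-type mice against 13.7 to 21.6 TPM in null mice. Its difference was near 0 (-0.00087) and turned sign under each other scaling.

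Neither enzyme that removes S1P passed the test. Sgpl1, the lyase that cleaves S1P irreversibly, was at 31.5 to 44.2 TPM in wild-type against 30.7 to 40.2 TPM in null mice, with a difference of -0.06 and an adjusted p of 0.908 by limma. Sgpp1, the phosphatase that returns S1P to sphingosine, was at 23.3 to 29.9 and 21.4 to 29.7 TPM, with a difference of -0.03 and an adjusted p of 0.965. Both differences changed sign under median ratio scaling, and a p that misses the threshold does not show that the genotypes were alike.

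The receptors S1pr1, S1pr2 and S1pr4 did not pass either. S1pr1, the receptor by which lymphocytes leave tissues and which endothelial cells also carry, was at 18.3, 14.4, 13.1, 13.9 and 12.1 TPM in wild-type mice against 7.95, 11.1, 15.3, 10.6 and 11.6 TPM in null mice. As with Spns2, null mouse 3 was the one null mouse above the wild-type mean of S1pr1, and the difference of -0.34 (SE 0.160) had an adjusted p of 0.449 by limma. S1pr2, a receptor that restrains cell migration, was the lowest member, at 5.42 to 7.62 TPM in wild-type against 4.00 to 8.13 TPM in null mice (difference -0.10, adjusted p 0.896). S1pr4, a receptor of blood cells, was at 20.6 to 33.1 and 22.7 to 35.2 TPM (difference 0.08, adjusted p 0.916).

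The rest of the pathway was read from a list of 36 further genes of S1P, ceramide and sphingoid base metabolism, of which 25 had a mean of at least 1 TPM. Of these 25, 0 passed at an adjusted p under 0.05, 5 had estimates above 0 and 20 below, and the median difference was -0.12. The direction depended on the scaling of the libraries: 9 estimates were above 0 with median ratio scaling, 7 with quantile normalization and 9 with haemoglobin genes removed before rescaling. At an unadjusted p under 0.05, 0 were higher and 2 were lower, S1pr3 and Sptssa, where 4.28% of all genes were higher and 7.3% lower, so that the count is near that of all genes.

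S1pr3, a receptor of stromal and vascular cells, was the S1P gene with the lowest estimate. It stood at 23.1, 18.1, 13.9, 16.7 and 18.2 TPM in wild-type mice against 10.5, 12.2, 14.1, 9.12 and 7.52 TPM in null mice. Only null mouse 3 reached into the wild-type range, and the difference of -0.71 (SE 0.170) had an adjusted p of 0.277 by limma. Sptssa, a small subunit of serine palmitoyltransferase, which starts sphingolipid synthesis, was at 65.6 to 68.0 TPM in wild-type mice against 45.4 to 57.5 TPM in null mice. All 5 null mice lay below all 5 wild-type mice in Sptssa, as they did for 1.06% of all genes, and the difference was -0.30 (SE 0.083, adjusted p 0.291 by limma).

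By role, the other genes showed small differences. The phosphatases Plpp1, Plpp2 and Plpp3, which dephosphorylate lipids at the cell surface, had estimates of -0.06, -0.19 and -0.15. The 4 ceramidases tested, which release sphingosine from ceramide, lay between -0.18 (Acer2) and 0.04 (Acer3). All 5 ceramide synthase and ceramide kinase genes tested had estimates below 0, from -0.30 (Cers4) to -0.003 (Cers2), with Cerk, the ceramide kinase, at -0.24 (adjusted p 0.439). Of the 8 genes of sphingoid base synthesis, the regulators Ormdl1, Ormdl2 and Ormdl3 had the 3 estimates above 0, at 0.02, 0.10 and 0.04. The carriers of plasma S1P, Apom and Alb, averaged 0.105 and 0 TPM, and the receptor S1pr5 averaged 0.781 TPM, all under the level for testing.

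**Figure D2:**
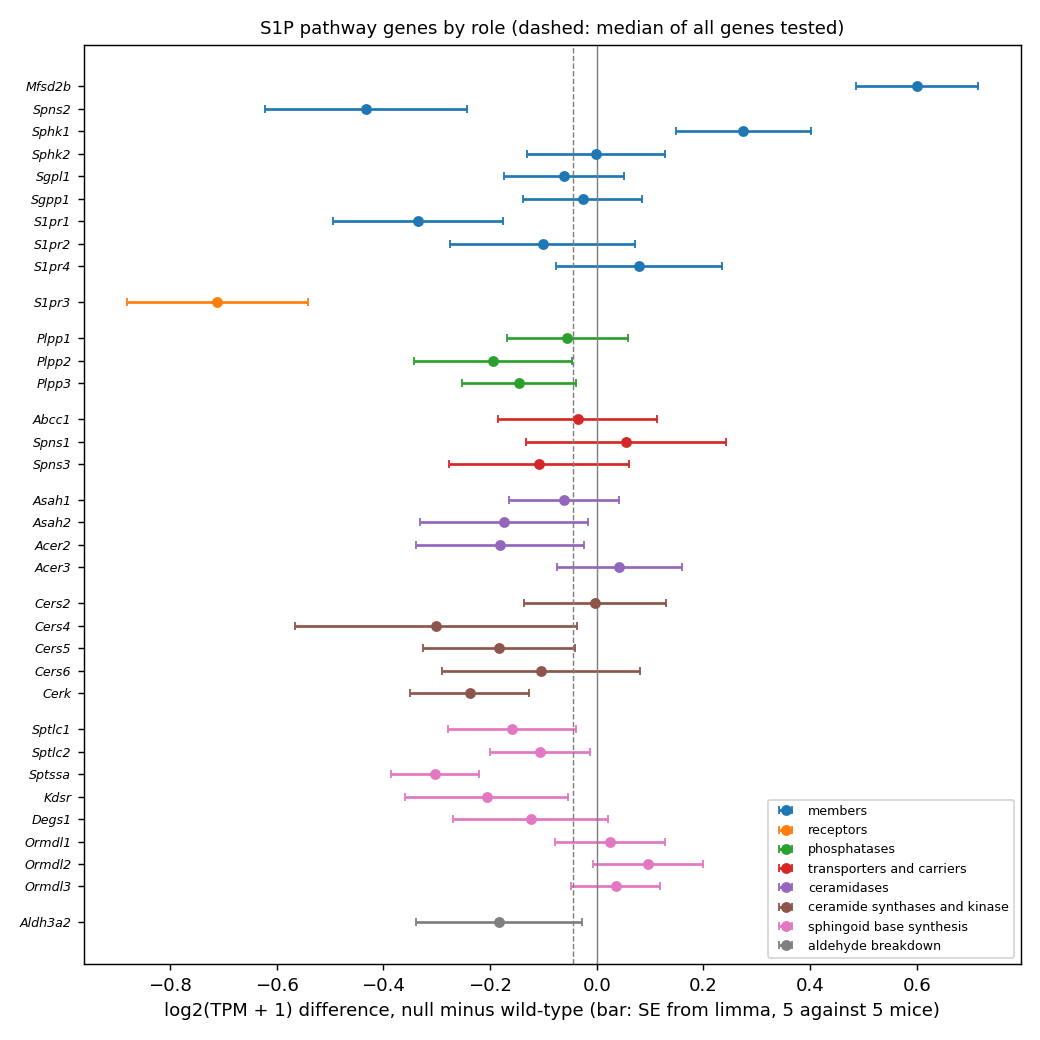
Difference between null and wild-type mice on the log2(TPM + 1) scale (horizontal axis) for the 9 members and the 25 other S1P pathway genes tested, coloured by role, with bars for the limma SE of 5 against 5 mice. Mfsd2b, chosen by this difference, lies farthest right at 0.60. Most other genes lie near the dashed median of all genes at -0.05, and S1pr3 lies farthest left at -0.71.

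Red cell content was measured first as the sum of the haemoglobin genes. Haemoglobin took 11.2, 16.4, 19.7, 18.7 and 11.7% of TPM in wild-type mice 1 to 5 and 17.5, 15.8, 20.5, 23.3 and 26.1% in null mice 1 to 5. The genotypes overlapped, and the difference of 5.09 percentage points had an exact two-sided permutation p of 0.0952 (n = 5 each, smallest p possible 0.00794). Among the wild-type mice, mouse 1 was lowest and mouse 3 highest in both haemoglobin and Mfsd2b. Among the null mice the order was not that of Mfsd2b: mice 1 and 2, the highest in Mfsd2b, were the lowest in haemoglobin. Wild-type mouse 5, with 11.7% haemoglobin, stood at 44.5 TPM of Mfsd2b, beside 44.9 TPM in wild-type mouse 4, with 18.7%.

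Per 10000 TPM of haemoglobin, Mfsd2b was 3.62, 2.69, 2.72, 2.40 and 3.79 TPM in wild-type mice against 4.51, 4.71, 2.64, 2.90 and 2.83 TPM in null mice. The ratio overlapped between the genotypes, and its mean difference was 0.18 on the log2 scale. Within genotype, that is after subtracting each genotype's mean, Mfsd2b and the haemoglobin sum had a Pearson r of 0.217 (exact permutation p 0.539 over 14400 rearrangements within genotype, adjusted p 0.539 over 9 relations) and a Spearman rho of 0.2 (exact p 0.640, adjusted p 0.640). Without wild-type mice 1 and 5, farthest from the median haemoglobin sum, r was -0.08. The value depended on the scaling, with r at 0.640 after median ratio scaling (exact permutation p 0.0642, adjusted p 0.0964) and 0.527 with haemoglobin removed before rescaling, and it did not pass in any of them. With the haemoglobin sum as a second term of the fit, the Mfsd2b difference between genotypes was 0.55, beside 0.60 without it. The part of red cell content in that difference was not tested.

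Other red cell genes had estimates above 0 in the null mice almost throughout, though none passed the adjusted test. In 4 lists of red cell genes other than haemoglobin (heme synthesis, membrane, transcription factors and late erythroid enzymes), 61 of 62 genes tested had estimates above 0. Their median was 0.49, and 57 had an unadjusted p under 0.05 in that direction against 4.28% of all genes. The exception was Slc2a1, a glucose transporter (-0.41). Alas2, the first enzyme of heme synthesis in red cells, averaged 707 and 949 TPM in the wild-type and the null mice (difference 0.44, adjusted p 0.355 by limma). Ppox, a later heme enzyme, was at 45.9 to 59.6 TPM in wild-type mice against 65.1 to 75.8 TPM in null mice (difference 0.45), and Aqp1, the water channel of the red cell membrane, at 202 to 309 and 336 to 373 TPM (difference 0.50). Epor, the erythropoietin receptor, was at 27.0 to 41.9 TPM and 42.0 to 48.3 TPM (difference 0.52). The lists were chosen with earlier results of these mice known, so their direction is not independent evidence.

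Within genotype, the red cell lists had higher coefficients with Mfsd2b than the haemoglobin sum, but none passed the adjustment and the differences between coefficients were not tested. The Pearson r was 0.612 for the membrane list (exact permutation p 0.0433, adjusted 0.153), 0.585 for heme synthesis (p 0.0509, adjusted 0.153), 0.490 for the erythroid factors (p 0.0861, adjusted 0.194) and 0.490 for the late erythroid list (p 0.120, adjusted 0.216). The Spearman rho of these 4 lists was 0.5, 0.45, 0.35 and 0.35, with exact permutation p-values of 0.192, 0.246, 0.380 and 0.380 and adjusted values of 0.554, 0.554, 0.569 and 0.569. Leaving out the 2 mice farthest from the median of each list gave r of 0.534, 0.477, 0.334 and 0.330. With the mean of the heme and membrane lists as a second term, the Mfsd2b difference between genotypes was 0.35.

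Platelet and megakaryocyte genes went with Mfsd2b among mice of the same genotype. The mean log2(TPM + 1) of the 19 platelet genes was 5.27, 5.77, 5.86, 5.84 and 5.82 in wild-type mice 1 to 5 and 6.45, 6.24, 5.60, 6.08 and 6.43 in null mice 1 to 5. The lowest wild-type mouse in this list, mouse 1, and the lowest null mouse, mouse 3, were also the lowest of their genotype in Mfsd2b, and the highest of each genotype, wild-type mouse 3 and null mouse 1, were the highest in it. The within-genotype Pearson r was 0.885 (exact permutation p 0.000278, adjusted p 0.0025 over 9 relations), and the Spearman rho was 0.95 (exact p 0.00125, adjusted p 0.0112). Whether this coefficient differs from those of the red cell lists was not tested.

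The platelet relation rested in part on null mouse 3. Without that mouse r was 0.741 with an exact permutation p of 0.0785 (adjusted p 0.240). Without null mice 1 and 5, farthest from the median of the list, r was 0.848 (exact permutation p 0.0347, adjusted 0.3125). A fit across all genes gave Mfsd2b a slope of 0.53 on the list mean (SE 0.147) with an adjusted p of 0.150 by limma, which did not pass. After median ratio scaling the slope was 0.63 with an adjusted p of 0.0230. It did not pass with quantile normalization (adjusted p 0.0754), haemoglobin removed (0.106) or replicate number as a block (0.351). Nor did it pass when any 1 mouse was left out (adjusted p 0.124 to 0.570). Slopes above 0 on this list passed for 0.0722% of all genes. The other lists in the same family of relations, endothelial, neutrophil and B cell, had r of -0.359, 0.356 and -0.356 with Mfsd2b (exact permutation p 0.454, 0.383 and 0.477, adjusted p 0.537 for each). Their Spearman rho was -0.2, 0.45 and -0.2 (exact permutation p 0.640, 0.246 and 0.640, adjusted 0.640, 0.554 and 0.640). Without the 2 farthest mice, their r was -0.479, 0.224 and -0.239. The chondrocyte, osteoblast and osteocyte, osteoclast, T and NK cell and macrophage lists were outside this family. The median r of their genes with Mfsd2b was -0.568, -0.644, -0.565, -0.175 and 0.229.

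**Figure D3:**
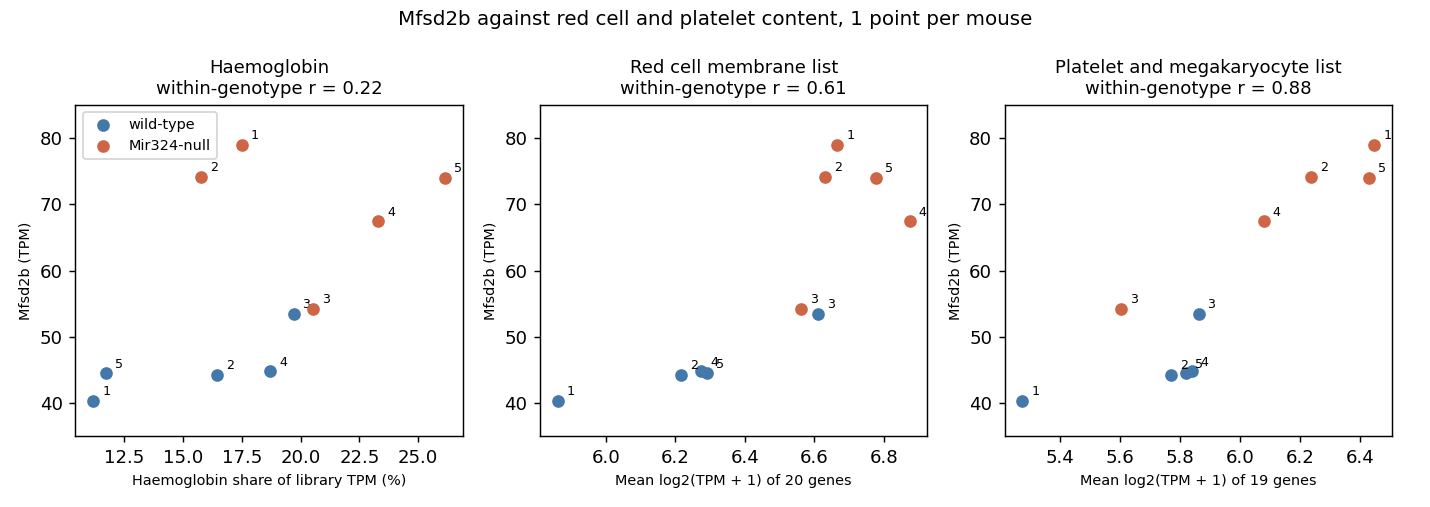
Mfsd2b in TPM (vertical axis, from 35 to 85) against the haemoglobin share of the library, the mean of 20 red cell membrane genes and the mean of 19 platelet genes (horizontal axes), with 1 numbered point per mouse. Among mice of 1 colour, Mfsd2b follows the platelet mean (r 0.885 within genotype), with null mouse 3 and wild-type mouse 1 at the low ends. For haemoglobin the within-genotype r is 0.217. Wild-type mouse 1 is lowest and wild-type mouse 3 highest of their genotype in both haemoglobin and Mfsd2b. Null mice 1 and 2, the highest in Mfsd2b, are the lowest null mice in haemoglobin.

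The platelet list itself was higher in the null mice by a median of 0.43 on the log2 scale. All 19 genes had estimates above 0, and 14 had an unadjusted p under 0.05 against 4.28% of all genes, but 0 passed the adjusted test and 0 separated the genotypes completely. Ppbp, a platelet chemokine precursor and the most abundant gene of the list, averaged 715 and 992 TPM in the wild-type and the null mice (difference 0.46, adjusted p 0.412 by limma). Treml1, a receptor of platelet granules, was at 33.7 to 52.0 and 50.1 to 87.8 TPM (difference 0.63, adjusted p 0.283). Per 100 TPM of Gp9, a subunit of the platelet receptor for von Willebrand factor, Mfsd2b was at 59.1 to 71.3 TPM in wild-type against 60.3 to 83.8 TPM in null mice. Relative to the mean of the platelet list, Mfsd2b differed between genotypes by 0.15 on the log2 scale and overlapped, and relative to the red cell membrane list likewise by 0.15 with overlap. Added to the fit as a second term, the platelet mean left a genotype difference of 0.36 in Mfsd2b. Platelet and red cell genes were both higher in the null mice, and their separate parts in the Mfsd2b difference were not tested.

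The genes most like Mfsd2b were sought over 10332 genes averaging 5 TPM or more, by Pearson r of within-genotype deviations in the 10 mice, as a description with no test. The closest was Gnaz, a G protein alpha subunit abundant in platelets, with r of 0.953. Its level was 7.39, 10.8, 12.5, 10.4 and 9.76 TPM in wild-type mice against 19.7, 15.6, 9.27, 13.8 and 15.4 TPM in null mice, so that mouse 1 was lowest and mouse 3 highest of the wild-type mice, as in Mfsd2b, and mouse 3 lowest of the null mice. Others among the most alike were Mpig6b, an inhibitory receptor of megakaryocytes and platelets (0.935), Sord, sorbitol dehydrogenase (0.924), and Prkcq, a protein kinase C of T cells and platelets (0.916). P2rx1, the ATP-gated channel of platelets, had 0.910. Lower values were those of Ubash3b, a phosphatase that restrains platelet and T cell signalling (0.896), Optn, an autophagy receptor (0.896), Trpc6, a cation channel (0.895), and Slamf1, a receptor of blood cells (0.891). Without null mouse 3, the r of these 9 genes ranged from 0.745 (Ubash3b) to 0.898 (Gnaz).

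All 19 platelet genes had r of at least 0.7 with Mfsd2b, a value that 1.37% of the 10332 genes reached, and 17 of them were among the 100 most alike. The lowest r was 0.706 (Tubb1, the platelet tubulin), and the median was 0.796. Of 20 red cell membrane genes 1 reached 0.7 (Ank1, 0.730), of 12 erythroid factors 2 did, the higher being Nfe2, a factor that megakaryocytes also need (0.756), and of 12 heme genes 0 did. The medians of these 3 lists were 0.562, 0.561 and 0.466. In the membrane list 19 of 20 genes had r above 0, the exception being Slc2a1 (-0.472). Among the erythroid factors 11 of 12 did, the exception being Klf1 (-0.539). The 5 haemoglobin genes above 5 TPM had a median of 0.251. Without null mouse 3, 5 of the 19 platelet genes (26.3%) reached 0.7 against 1.65% of all genes, with a median of 0.681. So did 3 of 12 heme genes (25%), 3 of 12 erythroid factors (25%) and 4 of 20 red cell membrane genes (20%). Of 18 late erythroid genes 1 did, and of 5 haemoglobin genes 0 did. At this cut, the platelet share was thus near those of 3 red cell lists. The medians without that mouse were 0.661 for erythroid factors, 0.617 for red cell membrane genes, 0.604 for heme genes, 0.559 for late erythroid enzymes and 0.30 for haemoglobin.

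**Figure D4:**
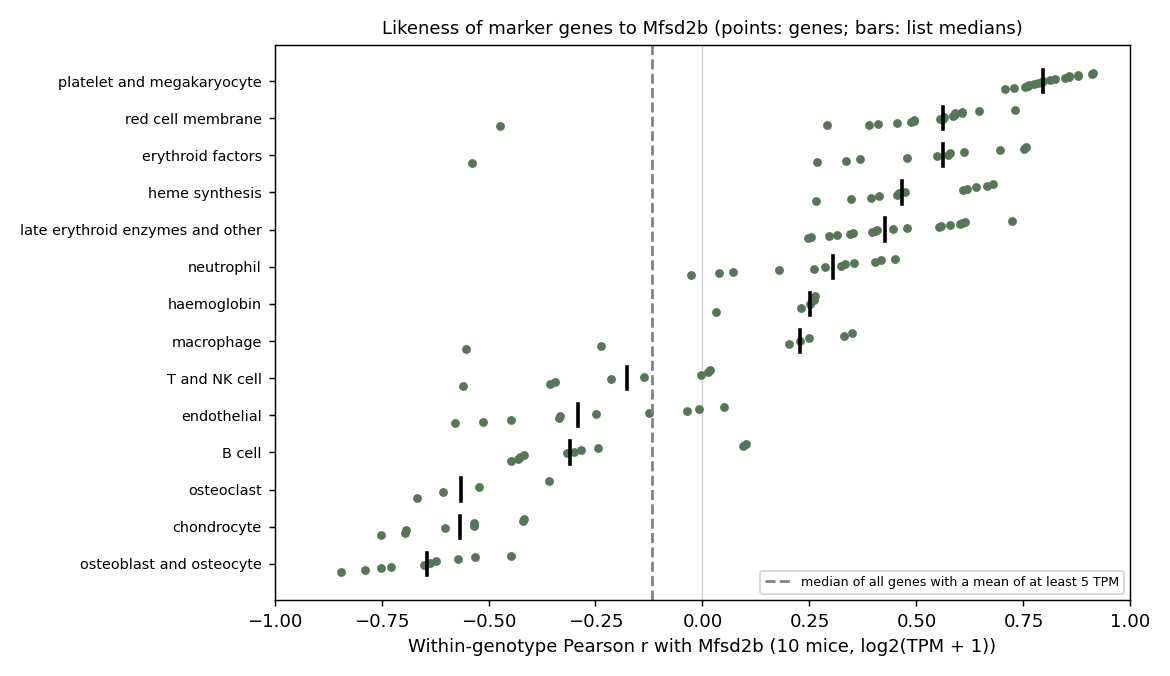
Within-genotype Pearson r with Mfsd2b (horizontal axis, 10 mice) for each gene of 14 marker lists averaging 5 TPM or more, 1 point per gene, black bars for list medians and a dashed line for the median of all genes at -0.12. Platelet genes gather at 0.706 and above, red cell lists have medians from 0.251 (haemoglobin) to 0.562 (membrane), and bone and cartilage lists on the negative side.

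Genes of the solid tissue ran the other way from Mfsd2b within genotype. Median r was -0.568 for 8 chondrocyte genes, -0.644 for 10 osteoblast and osteocyte genes and -0.565 for 4 osteoclast genes, against -0.118 over all genes. Without null mouse 3 these medians were -0.676, -0.526 and -0.286, against -0.017 over all genes. Between genotypes, 10 of 10 osteoblast and osteocyte genes had estimates below 0 with a median of -0.89, as did 6 of 6 osteoclast genes (median -0.97) and 7 of 8 chondrocyte genes (median -0.66), where 40% of all genes had estimates above 0. In each of these lists 0 genes passed at an adjusted p under 0.05 by limma, and 9, 6 and 5 were lower at an unadjusted p under 0.05 against 7.3% of all genes. Phex, an osteocyte endopeptidase, was at 19.7 to 42.6 TPM in wild-type against 10.1 to 18.0 TPM in null mice (difference -0.89, adjusted p 0.277 by limma). It was the 1 gene of the 10 whose null mice all lay below the wild-type mice, as 1.06% of all genes did. Summed over 10 genes, the osteoblast and osteocyte list held 6035 to 10527 TPM in wild-type mice against 2805 to 5341 TPM in null mice. In TPM, a larger share of blood transcripts lowers the share left for all others. Its part in the differences of the bone and cartilage genes was not tested. With haemoglobin removed and the libraries rescaled, the median difference over all genes was 0.036 in place of -0.045. The Mfsd2b difference was then 0.69.

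Of the other members, S1pr4 and Spns2 had a slope on a marker list that passed the test. In fits that kept genotype and added the mean of 1 list at a time, 14 second terms in all with p-values adjusted over all genes within each, 2 of the 9 members had a slope at an adjusted p under 0.05, as 10.9% of all genes had on at least 1 term. S1pr4 followed the neutrophil list, with a slope of 0.73 (SE 0.137, adjusted p 0.0281 by limma), as 1.55% of all genes did. Its 2 highest mice, null mouse 1 at 35.2 TPM and wild-type mouse 5 at 33.1 TPM, were also the 2 highest in the summed neutrophil genes, at 119113 and 116924 TPM against 59040 to 100885 TPM in the other 8. The call was kept after leaving out a mouse in 4 of 10 cases, and without wild-type mouse 5 the slope was 0.69 with an adjusted p of 0.182.

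Spns2 followed the osteoblast and osteocyte list, with a slope of 0.64 (SE 0.135, adjusted p 0.0206 by limma), as 7.09% of all genes did. With that list mean in the fit, the estimate for genotype in Spns2 was 0.10 in place of -0.43. Without wild-type mouse 1, which was highest in both, the adjusted p was 0.111, and after median ratio scaling it was 0.0739. The slope of Spns2 on the endothelial list was 1.83 with an adjusted p of 0.124 by limma and did not pass. Its median r was 0.833 with osteoblast and osteocyte genes, 0.793 with osteoclast, 0.662 with endothelial and 0.581 with chondrocyte genes. It was -0.690 with red cell membrane and -0.640 with platelet genes, against 0.274 over all genes. The relation was thus not particular to osteoblast and osteocyte genes. S1pr3, outside the 9 members, also followed the osteoblast and osteocyte list, with a slope of 0.55 (SE 0.131, adjusted p 0.0333), which became 0.157 in adjusted p without wild-type mouse 1 and 0.108 after median ratio scaling.

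S1pr1 had its highest median r with the osteoclast list (0.72) and its lowest with the platelet list (-0.77), and no slope of it passed. Within genotype, Mfsd2b had r between -0.788 (S1pr1) and 0.342 (S1pr4) with the other 8 members, with a median of -0.05. Sphk1, Sgpp1 and S1pr2 had no list with a median r above 0.5, as a description of 10 mice.

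**Figure D5:**
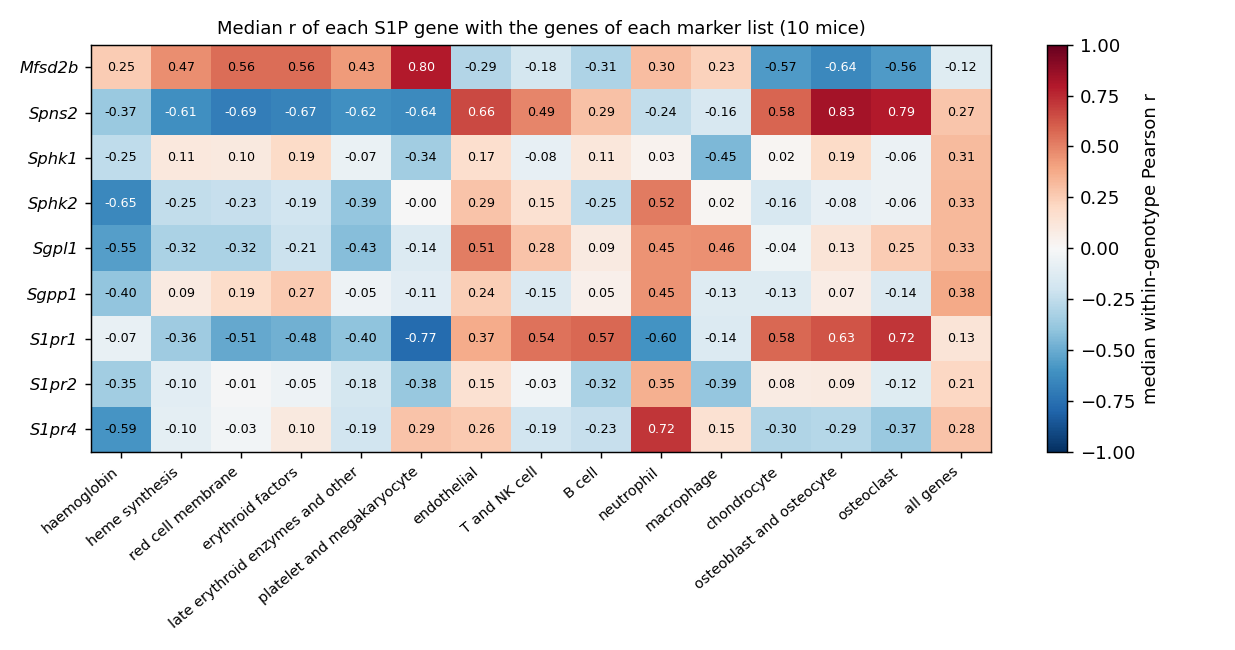
Median within-genotype Pearson r (colour and number, 10 mice) of each member (rows) with the genes of each marker list (columns), with the median over all genes in the last column. Mfsd2b is highest with the platelet list (0.80), Spns2 with osteoblast and osteocyte genes (0.83), S1pr1 with osteoclast genes (0.72) and S1pr4 with neutrophil genes (0.72).

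Most of the Mfsd2b signal came from a transcript that is not annotated as protein coding. Mfsd2b-202, annotated as a target of nonsense-mediated decay, held 60.0% of Mfsd2b TPM over the 10 mice, followed by the protein-coding Mfsd2b-204 with 15.9% and Mfsd2b-201 with 14.1%. Mfsd2b-202 averaged 28.0 ± 1.86 TPM in wild-type against 41.2 ± 7.22 TPM in null mice (SD, n = 5 each), and the genotypes overlapped through null mouse 3 at 29.7 TPM. The protein-coding transcripts together stood at 5.96, 14.8, 18.0, 12.8 and 13.3 TPM in wild-type mice against 24.5, 21.04, 18.3, 21.4 and 22.7 TPM in null mice. These did not overlap, and in wild-type mouse 1, the lowest, Mfsd2b-201 was listed at 0. The shares of the transcript types overlapped between genotypes, with nonsense-mediated decay at 61.8 ± 4.91% and 59.5 ± 4.93%. The division of reads among transcripts that share exons is an estimate of the authors' program, so sums per gene are the firmer values.

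No gene around Mfsd2b on chromosome 12 passed the test between genotypes. Within 250 kb, 17 genes were annotated, 13 were in the table and 8 had a mean of at least 1 TPM. None of the 8 passed, at either an adjusted or an unadjusted p under 0.05 (smallest adjusted p 0.638 by limma), with 5 estimates above 0 and 3 below. Ubxn2a, the nearest gene upstream, was at 17.0 to 22.8 TPM in wild-type against 17.5 to 26.4 TPM in null mice (difference 0.10). Wdcp, on the other side, was at 3.60 to 4.77 and 3.47 to 5.08 TPM (difference 0.06).

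The start of Mfsd2b is printed because its level moved with blood cell genes. The stretch runs from 250 bases before to 50 bases after the start annotated in RefSeq, at chr12:4874310-4874609 (GRCm38.p6, minus strand), 5′ to 3′, and capitals mark matches to CCNCNCCC, a pattern bound by factors of the KLF family, searched on both strands.
Mfsd2b promoter: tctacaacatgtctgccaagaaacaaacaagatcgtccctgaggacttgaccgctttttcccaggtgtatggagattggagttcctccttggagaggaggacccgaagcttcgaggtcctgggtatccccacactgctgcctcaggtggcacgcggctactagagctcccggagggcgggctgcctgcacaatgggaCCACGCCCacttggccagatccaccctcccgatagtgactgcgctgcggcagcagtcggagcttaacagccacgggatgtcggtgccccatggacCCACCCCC
It held 2 such matches, and at least 1 stood in 49.5% of 32851 promoters of the same length. Neither AGATAA nor TGATAA, patterns bound by GATA factors, was found on either strand of it, while 18.6% of all promoters, 7 of 16 promoters of the platelet list and 6 of 15 of the red cell membrane list held at least 1. These are descriptions of letters in a window of 300 bases, and enhancers elsewhere were not searched.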

How the data were processed

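The authors deposited 1 table of TPM values per transcript, with a column per mouse. Per the submitters' processing notes, kallisto and DESeq2 were used and the build GRCh38 was named, although the 116912 transcript identifiers are mouse. Program versions and the transcript index are not given in the sources used here. TPM values keep no read counts, so depth is unknown, no counting interval was computed and no count model was run. Transcripts were matched without version numbers to GENCODE M21 (GRCm38; 115440 matched, and the 1472 unmatched held 0.275 to 0.356% of each library) and summed per gene. Genotypes were compared with limma 3.58.1 (R 4.3.3, trend on mean) on log2(TPM + 1) over 13841 genes that averaged 1 TPM or more, with Benjamini-Hochberg adjustment and a threshold of 0.05. A change on this scale understates that of low genes. Relations within genotype used deviations from genotype means and exact two-sided permutation. The fits were tested on simulated data. The exact test of 5 against 5 mice cannot go below p = 0.00794. The p-values set differences and relations against the spread between these mice and take the mice as independent. Nothing in the labels says that mice came from separate litters or batches, so this independence could not be checked.

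The members and gene lists were chosen with earlier results of these data known. Genes were named by rule: the 9 members, the listed S1P pathway genes, the most abundant gene and the gene with the largest moderated t of a marker list, and the 10 genes most like Mfsd2b, of which 1 is not reported here. Gp9, Col2a1, Matn1, Matn3, Col9a1, Slc2a1, Klf1, Tubb1, Ank1, Nfe2 and the 2 neighbours of Mfsd2b were named after their values were seen. Replicate numbers were treated as names and not as pairs, except in the block named below. Alternatives covered pseudocount, filter, scaling, moderation, a block, covariates, single transcripts and leaving out each mouse. Sequences came from RefSeq on GRCm38.p6, in which 8 of 9 members matched a promoter.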

Additional observations from a re-analysis of the deposited data

Results flagged for a closer look

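In 3 of 70 groups of 5 mice examined, 1 mouse stood apart from the other 4 by more than Dixon's 95% critical value of 0.71, where chance alone flags about 1 group in 20. Sphk2 in wild-type mouse 4 was at 13.9 TPM, below 17.1 to 18.3 TPM in the other wild-type mice. Trpc6, one of the 10 genes most like Mfsd2b, was at 3.71 TPM in null mouse 3, below 6.85 to 7.76 TPM in the other null mice. The mean log2(TPM + 1) of the platelet and megakaryocyte list was 5.27 in wild-type mouse 1, below 5.77 to 5.86 in the other wild-type mice. Wild-type mouse 1 was also lowest of its genotype in Mfsd2b, and null mouse 3 was lowest of its genotype in both Mfsd2b and the platelet list.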

How the results depend on the processing

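No gene differed between genotypes in the fit as reported, at an adjusted p under 0.05 by limma, and leaving out 1 mouse gave 0 to 1 genes. An unadjusted p under 0.05 was found for 1603 genes, 63.1% of them lower, against 48.5% lower with median ratio scaling, 51.5% with quantile normalization and 32.2% with haemoglobin removed. The number of such genes was 906 with the red cell mean as a second term and 575 with the platelet mean. The genes that followed haemoglobin within genotype numbered 12, and 0 without a filter, 50 with median ratio scaling, 1 with quantile normalization, 23 with haemoglobin removed, 2 with eBayes without trend and 0 to 135 without 1 mouse, so this count carries little weight. Mfsd2b kept a difference above 0 in every setting run, at 0.55 to 0.69 without 1 mouse, 0.35 with the red cell mean, 0.36 with the platelet mean, and 1.06, 0.32 and 0.25 for Mfsd2b-201, Mfsd2b-205 and Mfsd2b-207 alone. The r of Mfsd2b with haemoglobin ran from -0.013 (without wild-type mouse 3) to 0.363 without 1 mouse, and that with the platelet list from 0.741 (without null mouse 3, exact permutation p 0.0785) to 0.934.

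Signs turned only for members with differences near 0 or under a second term. Spns2 was at 0.14 with the red cell mean. Sphk2 was at 0.059, 0.038 and 0.085 under the 3 other scalings (median ratio, quantile, haemoglobin removed), 0.16 and 0.13 with the haemoglobin and red cell terms, and -0.086 to 0.069 without 1 mouse. Sgpl1 was at 0.00044 and 0.027 under median ratio scaling and with haemoglobin removed, and at 0.065 and 0.097 with those 2 terms. Sgpp1 was at 0.035, 0.0034 and 0.061 under the 3 scalings, 0.064 with the haemoglobin term and -0.079 to 0.034 without 1 mouse. S1pr2 was at 0.022 with the haemoglobin term, 0.073 with the platelet term and -0.18 to 0.037 without 1 mouse, and S1pr4 at -0.046 with the platelet term and -0.013 to 0.17 without 1 mouse. The other S1P genes with estimates above 0, 5 of 25, numbered 13, 16 and 10 with the haemoglobin, red cell and platelet terms, and 2 without null mouse 2. Under each of the 3 other scalings, 61 of 62 red cell genes and 19 of 19 platelet genes had estimates above 0. The causes were not tested.

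Same-numbered mice did not deviate together (r from -0.144 to 0.056 over all genes), and the labels name no pairing. These r cannot exclude a shared litter or batch. With the replicate block, 0 genes differed between genotypes, 0 followed haemoglobin, and r with Mfsd2b was 0.459 for haemoglobin and 0.941 for the platelet list. Depth is unknown, and the number of mice limits the precision.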
